A study of Homo sapiens
Mus musculus and Homo sapiens and Mus musculus with 7 samples.

Results

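Non-muscle myosin II is the motor that pulls actin filaments past each other in cells that are not muscle, and it drives cell shape, adhesion, migration and the closing of the cleavage furrow. Each motor holds a pair of heavy chains, which carry the ATPase head and the coiled-coil tail that assembles into filaments, together with essential and regulatory light chains. MYH9 encodes heavy chain IIA and MYH10 heavy chain IIB. Fibroblasts are known for high IIA, and many cell types make both.

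The genes described are human MYH9 and MYH10, taken by symbol, and their mouse counterparts Myh9 and Myh10, taken by identifier. They are 4 of the 113473 genes in the files, 2 of the 58721 human and 2 of the 54752 mouse genes. They were selected on measured values: earlier results of these data had shown both human genes lower in HA than in V5 ribosome immunoprecipitates (IPs). That human difference is therefore given as a description with no test.

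The series asked whether a tag on the ribosomal protein RPL22 lets ribosomes of one line, and the RNA bound to them, be pulled out of a mixed culture. Human HEK293 cells, an embryonic kidney line, expressed RPL22-HA, mouse NIH3T3 fibroblasts expressed RPL22-V5, and the lines were grown together. The 7 libraries are a first and a second HA IP, a first and a second V5 IP, 1 co-culture input of total RNA, and 1 monoculture of each line. Both first IPs were made from a lysate that the labels number 1. The second HA IP came from lysate 5 and the second V5 IP from lysate 4. The sources used here do not say what the later lysates are. If the numbers followed the order in which the samples are listed, which no label states, lysate 5 would be that of the first V5 IP and lysate 4 that of the first HA IP. Second IPs would then be serial IPs from lysate already used with the other antibody, so a first over second ratio may not compare like with like. Nor do the sources say whether the lines are clones, or whether the monocultures carried a tag.

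Total counts ran from 826781 to 2063885 per library. The share of human counts was 82.1% and 77.6% in HA IPs, 6.25% and 4.48% in V5 IPs and 26.9% in the input. V5 IPs thus offered only 128915 and 81798 human counts, and HA IPs 158572 and 350176 mouse counts. In an IP the matching line is called on target, and the other off target. Levels are CPM, the counts of a gene per 1000000 counts of its own species, so that the species share drops out. Intervals are exact 95% intervals of the count (Poisson) or of a ratio of counts (binomial) and cover counting error only. Nothing in the labels says that the IPs came from separate cultures, so p-values measure the spread between these IPs alone. Of 3 marker genes looked at for HEK293, KRT18 had 90 and 164 counts in HA IPs, 0 and 4 in V5 IPs and 161 in HEK293. VIM had 69 and 60 counts in HA IPs, 37 and 3 in V5 IPs and 85 in HEK293. As CPM, VIM was at 94.6 and 49.5 in HA IPs, 287 and 36.7 in V5 IPs and 103 in HEK293, so it was highest in the first V5 IP. KRT18 was at 123 and 135 CPM in HA IPs, 0 and 48.9 CPM in V5 IPs and 195 CPM in HEK293. KRT8 was near 0, with 1 and 6 counts in HA IPs, 0 in both V5 IPs and 7 in HEK293. The part of the markers in the results was not tested. Bulk counts cannot tell fewer molecules per cell from fewer cells.

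MYH9 (ENSG00000100345.21) lies on hg38 chromosome 22, 36281277 to 36388067, minus strand, and MYH10 (ENSG00000133026.12) on chromosome 17, 8474205 to 8630761, minus strand. Their exons cover 9012 and 9011 bases, nearly the same length. No exonic base of MYH9 was shared with another gene, and 0.799% of those of MYH10 were shared with NDEL1 on the other strand. Counting without strand cannot tell those bases apart. Mouse Myh9 (ENSMUSG00000022443.17; chromosome 15, 77760587 to 77842175, minus strand) has 12928 exonic bases and Myh10 (ENSMUSG00000020900.15; chromosome 11, 68691559 to 68816632, plus strand) has 10458. No source used here names the mouse build. Neither mouse gene shared an exonic base with another gene.

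The human pair can be told apart by sequence, which matters because every ratio between them rests on it. The coding parts of 1 GENCODE 29 transcript of each gene, with 5883 bases for MYH9 and 6024 for MYH10, are 73.5% identical in a global alignment. Their longest exact shared run is 31 bases, and 0 of 5849 windows of 35 bases of the MYH9 coding part occur in that of MYH10. Transcript GC content is 58.6% for MYH9 and 49.0% for MYH10. The stretch around the longest run, in the region coding for the tail, is shown first, as coding bases 4302 to 4361 of MYH9 and 4416 to 4475 of MYH10, with the 10 aligned bases that differ in capitals.
MYH9: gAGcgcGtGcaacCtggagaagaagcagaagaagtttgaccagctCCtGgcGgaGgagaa
MYH10: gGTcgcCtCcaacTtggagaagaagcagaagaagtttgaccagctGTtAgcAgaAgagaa
The least identical stretch of the same length lies at coding bases 3855 to 3914 of MYH9 and 3969 to 4028 of MYH10, where 34 of 60 aligned bases differ and are in capitals.
MYH9: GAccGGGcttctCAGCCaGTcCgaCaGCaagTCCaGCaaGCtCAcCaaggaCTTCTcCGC
MYH10: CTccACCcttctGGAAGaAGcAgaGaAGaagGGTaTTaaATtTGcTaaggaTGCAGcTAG

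Counts of one species' heavy chains were not detected on the other's in the monocultures. NIH3T3 cells alone gave 1604 counts of Myh9 and 25 of Myh10, with 0 counts of MYH9 and 0 of MYH10. HEK293 cells alone gave 18 counts of MYH9 and 32 of MYH10, with 0 of either mouse gene. A count of 0 allows 3 counts, or 0.187% of the Myh9 count, which for the 3138 Myh9 counts of the first V5 IP would be at most 5.87 of the 262 counts on MYH9. The limit is looser for MYH10, at 12.6 of its 76 counts in the first V5 IP and 3.48 of its 27 counts in the second, since Myh10 gave few counts to judge by.

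MYH9 was most abundant in human RNA of the V5 IPs, the off-target one. It had 78 counts or 107 CPM (84.5 to 133) in the first HA IP and 7 counts or 5.77 CPM (2.32 to 11.9) in the second. In the V5 IPs it had 262 counts or 2032 CPM (1794 to 2294) in the first and 27 counts or 330.1 CPM (218 to 480.3) in the second. It stood at 35.7 CPM (10 counts, 17.1 to 65.6) in the co-culture input and at 21.8 CPM (18 counts, 12.9 to 34.4) in HEK293 alone. The input and HEK293 intervals overlap, and both V5 IPs lay above every other library. The HA pair straddled the input, with the first above and the second below.

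MYH10 kept the same order of libraries except at its low end. Its levels were 85.0 CPM (62 counts, 65.1 to 109) and 14.0 CPM (17 counts, 8.16 to 22.4) in the first and second HA IPs. The first V5 IP had 589.5 CPM (76 counts, 464 to 738) and the second 330.1 CPM (27 counts, 218 to 480.3), intervals that overlap at their ends. The input held only 2 counts, or 7.14 CPM (0.865 to 25.8), and HEK293 alone held 32 counts, or 38.7 CPM (26.5 to 54.6). The interval of the second HA IP overlaps that of the input and lies below that of HEK293.

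Mouse Myh9 was far more abundant in its own species than MYH9 in the HA IPs, the input and the monocultures. That did not hold in the V5 IPs, where MYH9 had 2032 and 330.1 CPM. The highest level of Myh9 was again off target. It reached 6735 CPM (1068 counts, 6337 to 7151) in the first HA IP, against 208 CPM (73 counts, 163 to 262) in the second. It had 1622 CPM (3138 counts, 1565 to 1679) in the first V5 IP and 389 CPM (679 counts, 361 to 419.7) in the second. The input stood at 219 CPM (166 counts, 187 to 254) and NIH3T3 alone at 803 CPM (1604 counts, 764 to 843). The second HA IP and the input could not be told apart by their intervals, and NIH3T3 alone lay between the first and the second V5 IP.

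Myh10 was scarcer than Myh9 in each mouse library, and it too was highest in the first HA IP and next highest in the first V5 IP. It had 404 CPM (64 counts, 311 to 515) in the first HA IP and 0 counts in the second, where 3 counts would be 8.57 CPM. In the V5 IPs it had 54.3 CPM (105 counts, 44.4 to 65.7) in the first and 16.6 CPM (29 counts, 11.1 to 23.9) in the second. The input gave 3.95 CPM (3 counts, 0.814 to 11.5) and NIH3T3 alone 12.5 CPM (25 counts, 8.10 to 18.5). The intervals of the second V5 IP and of NIH3T3 alone overlap.

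**Figure D1:**
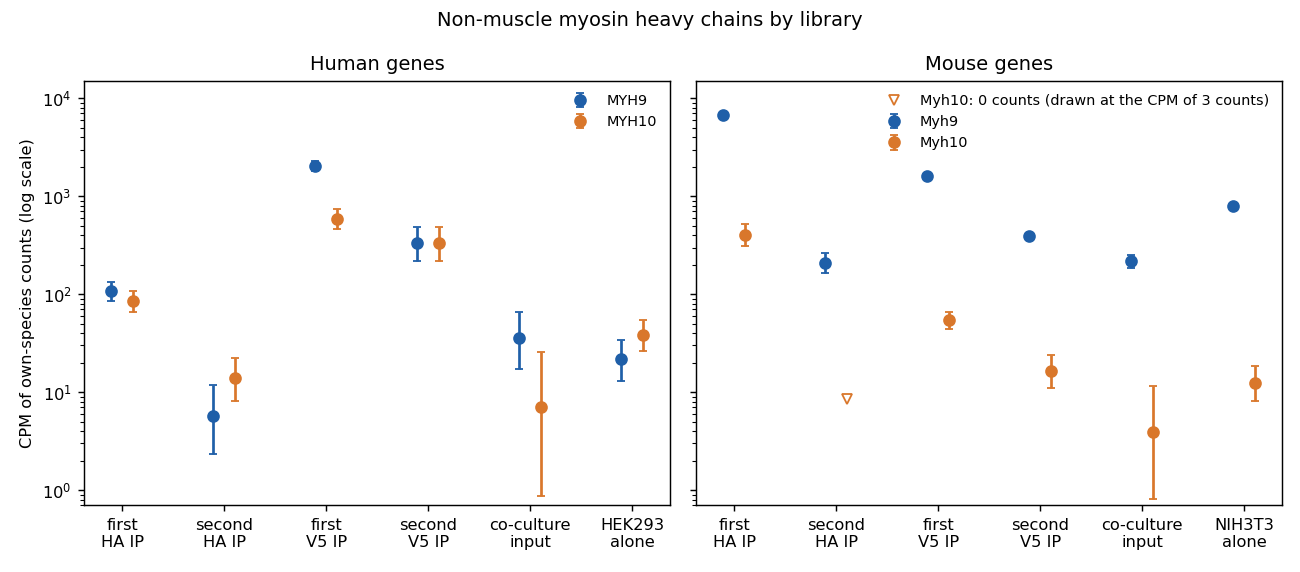
Level of each heavy chain gene in the 6 libraries that hold cells of its species, as CPM of own-species counts on a log scale, with exact 95% intervals of the count. MYH9 reaches 2032 CPM in the first V5 IP and Myh9 reaches 6735 CPM in the first HA IP, and each first IP lies above the second IP with the same antibody.

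The pattern shared by the 4 genes is a higher level in the first than in the second IP with the same antibody, for HA and for V5. All 4 genes were read in the same IPs, so they do not repeat the comparison. For MYH9 the ratio of first over second was 18.5 (8.58 to 47.6) with HA and 6.16 (4.14 to 9.52) with V5. For MYH10 it was 6.06 (3.50 to 11.1) with HA and 1.79 (1.14 to 2.88) with V5. Myh9 gave 32.3 (25.5 to 41.5) with HA and 4.17 (3.83 to 4.53) with V5. Myh10 was at least 47.1-fold higher in the first HA IP, taking its 0 in the second as 3 counts, and 3.26-fold higher with V5 (2.15 to 5.11). The ratio was larger with HA than with V5 for each gene, although the intervals of MYH9 overlap.

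The share of genes that differed this much was read for each pair of IPs. A floor of 50 CPM in one library of the pair and a prior count of 2 were used, and 3.94% of human genes were at least 4-fold higher in the first HA IP, and 11.6% in the first V5 IP, where human counts are few. The shares of mouse genes were 10.6% with HA and 0.798% with V5. At least 4-fold with both antibodies were 1.27% of 2209 human genes, MYH9 among them, and 0.497% of 2212 mouse genes, Myh9 among them. MYH10 and Myh10 passed that fold with HA and not with V5. Ranked by the ratio, Myh10 stood at place 2 and Myh9 at place 4 of 3156 mouse genes with HA, and Myh9 at place 19 of 2380 with V5. MYH9 stood at place 9 of 2590 human genes with HA and at place 131 of 3290 with V5. MYH10 stood at places 52 and 959 of the same human genes. Of the 4 genes, MYH9, MYH10 and Myh10 passed the floor with HA only through the first IP, and Myh10 did so with V5 too, so these places are a description.

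**Figure D2:**
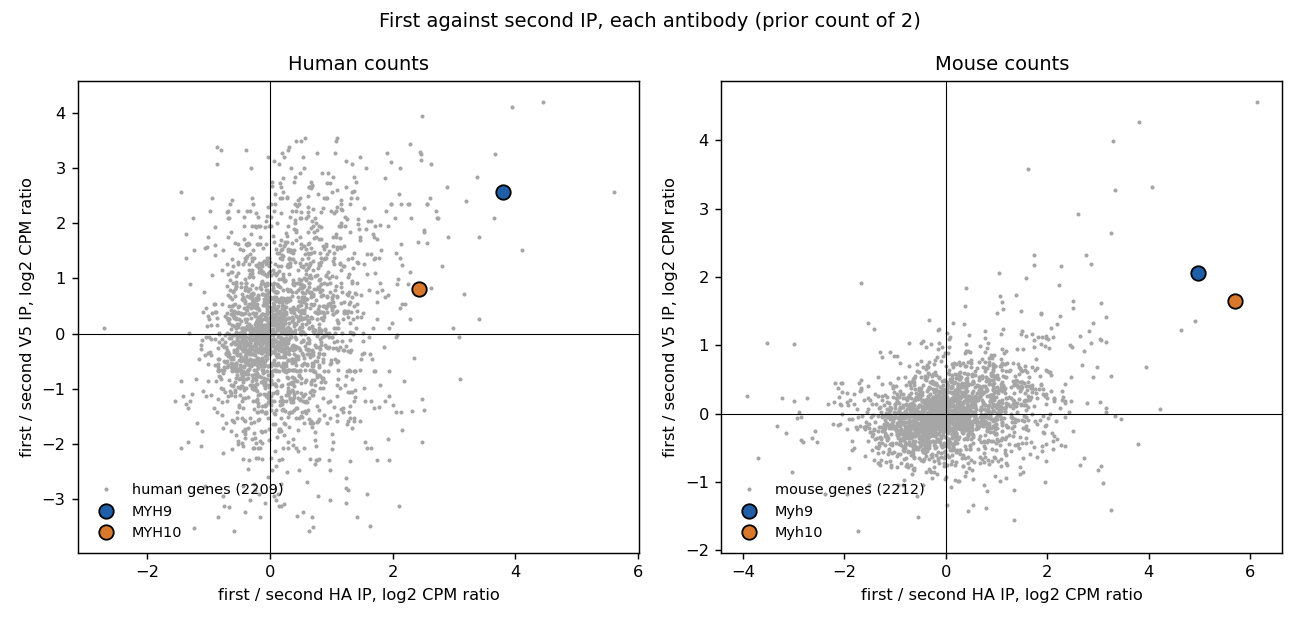
Log2 CPM ratio of the first over the second V5 IP (vertical axis) against the same ratio for HA (horizontal axis), with a prior count of 2, for 2209 human and 2212 mouse genes (grey) of at least 50 CPM in each pair, and the heavy chains in colour. All 4 heavy chains lie right of and above 0, with MYH9 at 3.80 and 2.55 and Myh9 at 4.96 and 2.06.

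IP order was then tested as a term beside the antibody and input groups, over all genes of a species. This comparison was chosen after the values were seen, and its spread rests on 1 residual degree of freedom shared across genes by edgeR. The human values come from the libraries that picked the genes and are given with no p. The log2 difference, first minus second, was 3.14 for MYH9 (SE 0.54) and 1.53 for MYH10 (SE 0.66). The p-values of the mouse genes restate a difference already seen and are no independent support. Myh9 was higher in first IPs by 3.29 (SE 0.44; edgeR adjusted p = 1.41e-10) and Myh10 by 3.44 (SE 0.75; edgeR adjusted p = 0.0036). Over all mouse genes 0.182% were called, 14 of them higher (0.17%) and 1 lower. DESeq2's Wald test did not call Myh9 (log2 3.38, SE 1.07, adjusted p = 0.802) or Myh10 (log2 5.12, SE 2.41, adjusted p = 1.00). Since IP order and lysate number change together, they cannot be told apart here.

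HA was set against V5 for the share of each heavy chain in the RNA of one species. The fitted log2 difference, HA minus V5, was −4.23 for MYH9 (SE 0.60) and −2.998 for MYH10 (SE 0.69). The ratios by order of IP come from the same libraries that picked the pair and only describe it. MYH9 was 0.0526 times its V5 level in the first HA IP (0.0403 to 0.0680) and 0.0175 times in the second (0.00643 to 0.0411). MYH10 was 0.144 times its V5 level (0.101 to 0.204) in the first and 0.0425 times (0.0217 to 0.0808) in the second HA IP. Over all human genes 0.368% were called, and 0.32% were called lower in HA, and since this contrast picked the pair, nothing is read from that share. Left out, the first HA IP moved the difference of MYH9 to −7.15 and the first V5 IP moved it to −2.36.

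Mouse counts in the same libraries did not show 1 direction. Myh9 was 4.15 times its V5 level in the first HA IP (3.87 to 4.45) but 0.536 times in the second (0.415 to 0.683). Myh10 was 7.44 times its V5 level in the first HA IP (5.36 to 10.2) and at most 0.515 times in the second, with 3 counts in place of its 0. The fitted HA minus V5 difference was 1.40 for Myh9 (SE 0.69) and 2.05 for Myh10 (SE 0.88), given without a test because it uses the antibody pair of the choice. Without the first HA IP these values became −2.30 and −8.56, the second resting on a count of 0.

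Against the co-culture input, each IP was compared with total RNA of the 1 co-culture sequenced without an IP. Both human genes lay above the input in both V5 IPs. MYH9 was 56.9 times the input in the first V5 IP (30.5 to 120) and 9.25 times in the second (4.34 to 21.4), and the fitted log2 difference was 4.51 (SE 0.86). MYH10 was 82.6 times the input (22.1 to 694) in the first V5 IP and 46.2 times (11.6 to 401) in the second, with a fitted 5.43 (SE 1.20) that rests on 2 input counts. Ranked from the highest fitted V5 minus input difference, MYH10 stood at place 517 and MYH9 at place 590 of 6244 human genes. In the HA IPs MYH9 was 2.99 times the input in the first (1.54 to 6.49) and 0.162 times in the second (0.0522 to 0.470). The fitted HA minus input difference was 0.28 for MYH9 (SE 0.78) and 2.43 for MYH10 (SE 1.19). For MYH9 it turned to −0.57 with IP order as a term and to −2.63 without the first HA IP. It rose to 1.15 with the GC trend removed and to 1.16 without the second HA IP. Over all human genes tested, Spearman correlations with transcript GC content were −0.50 for HA minus input and −0.36 for V5 minus input. With exonic length they were 0.12 for HA minus input, 0.21 for V5 minus input and −0.18 for HA minus V5. These human contrasts share libraries with the one that picked the pair, so no p is given.

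HA IPs were also set beside HEK293 cells alone, 1 library against 1. In the first HA IP MYH9 was 4.91 times its HEK293 level (2.91 to 8.71) and MYH10 2.19 times (1.41 to 3.48). In the second HA IP the ratios were 0.265 (0.0935 to 0.665) for MYH9 and 0.362 (0.189 to 0.672) for MYH10. All 4 intervals exclude equality, above it in the first and below it in the second IP.

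In mouse counts the same comparisons with the input could be tested, since mouse values took no part in the choice. Neither gene passed the threshold. V5 IPs minus input gave 1.94 for Myh9 (SE 0.92; edgeR adjusted p = 0.509) and 2.88 for Myh10 (SE 1.48; edgeR adjusted p = 0.575), where 0.815% of mouse genes were called. Off-target HA IPs minus input gave 3.34 for Myh9 (SE 1.00; edgeR adjusted p = 0.0890) and 4.92 for Myh10 (SE 1.53; edgeR adjusted p = 0.106), where 1.63% were called. Myh9 was 7.42 times the input in the first V5 IP (6.35 to 8.73), 1.78 times in the second (1.501 to 2.12), 30.8 times in the first HA IP (26.2 to 36.5) and 0.954 times in the second (0.714 to 1.26). The IPs of an antibody thus fell far apart. Calls did appear under other settings. In V5 IPs against input Myh9 passed when an HA IP, either one, was left out (edgeR adjusted p = 3.33e-10 without the first, 2.23e-12 without the second), and so did Myh10 (0.0157 and 0.00302). Over all mouse genes 10.1% and 9.81% were called in those fits. In HA IPs against input, without the first HA IP, Myh9 was at log2 −0.35 (edgeR adjusted p = 0.514). Myh10 then rested on 0 counts against 3 in the input, so its direction is not known. Both passed without the second HA IP (log2 4.24 and 5.94), where 15.9% of mouse genes were called and the lone HA IP was assumed to vary like the other groups. With IP order as a replicate block both passed as well, at 2.15 for Myh9 and 3.62 for Myh10 (edgeR adjusted p = 0.00493 and 0.0482), where 2.54% of mouse genes were called. Without a block, Myh9 also passed in HA IPs against input when the first or the second V5 IP was left out (edgeR adjusted p = 0.0205 and 0.0485), where 0.343% and 0.296% of mouse genes were called.

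**Figure D3:**
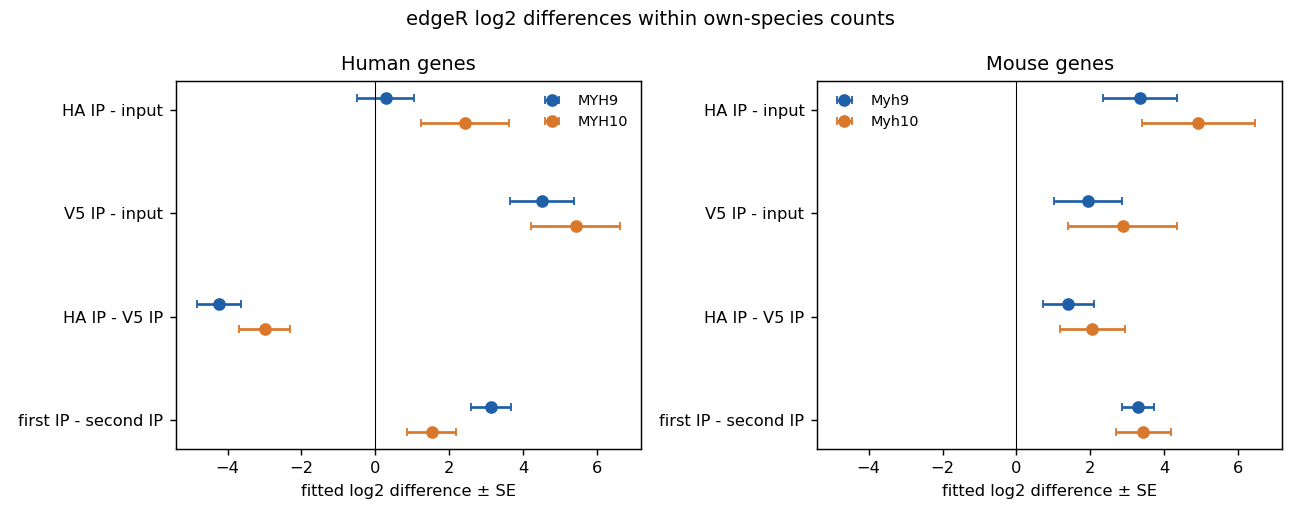
Fitted log2 differences (edgeR, points) with their SE (bars) for human MYH9 and MYH10 and mouse Myh9 and Myh10 in 4 comparisons, each with its first-named group minus the second. HA minus V5 is negative for the human genes (−4.23 and −2.998) and positive for the mouse genes (1.40 and 2.05), while first minus second IP is positive for all 4.

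The input itself was compared with each line alone, as 1 library against 1 with no test. MYH9 was 1.64 times its HEK293 level in the input (0.676 to 3.75), an interval that includes equality. MYH10 was 0.184 times its HEK293 level (0.0214 to 0.723) on 2 input counts. Myh9 was 0.272 times its NIH3T3 level (0.231 to 0.320) and Myh10 0.316 times (0.0610 to 1.03). The low input levels of Myh9 and MYH10 enlarge their ratios of IP over input. Beside NIH3T3 alone Myh9 was 2.02 times as high in the first V5 IP (1.90 to 2.15) and 0.485 times in the second (0.443 to 0.531).

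The balance of the IIB over the IIA gene was taken within each library, as counts per kilobase, so that scaling between libraries cancels. In human RNA MYH10 was 0.795 times MYH9 in the first HA IP (0.560 to 1.12) and 2.43 times in the second (0.957 to 6.93). It was 0.290 times in the first V5 IP (0.222 to 0.376) and 1.00 times in the second (0.565 to 1.77). In the input it was 0.200 times (0.0213 to 0.939) and in HEK293 alone 1.78 times (0.968 to 3.36). The first V5 IP therefore held a lower MYH10 share than both HA IPs, the second V5 IP and HEK293, beyond counting error, and the other intervals include 1 apart from the input's.

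In mouse RNA IIA dominated in each of the 6 libraries. Per kilobase Myh9 was 13.5 times Myh10 in the first HA IP (10.5 to 17.7) and at least 19.7-fold higher in the second, with 3 counts in place of the 0. It was 24.2 times Myh10 in the first V5 IP (19.9 to 29.7) and 18.9 times in the second (13.1 to 28.5). The input gave 44.8 times (15.1 to 219) and NIH3T3 alone 51.9 times (35.03 to 80.4). Relative to NIH3T3 alone, both V5 IPs and the first HA IP held more Myh10 per Myh9, beyond counting error.

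**Figure D4:**
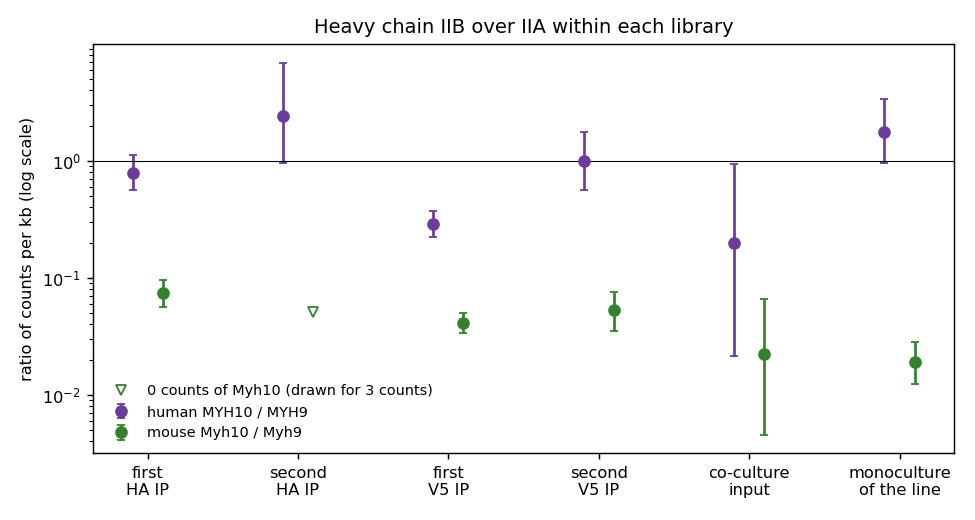
Ratio of the IIB gene to the IIA gene in counts per kilobase, on a log scale, for human (purple) and mouse (green) in each library, with exact 95% intervals and an open triangle, drawn at 3 counts, where Myh10 had 0 counts. Human ratios lie between 0.200 and 2.43 and mouse ratios below 0.1, with the first HA IP the highest of the mouse libraries that have counts of both genes.

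The genes most like the heavy chains were found by the root mean square difference of log2(CPM + 1) profiles, each centred on its own mean, over the 6 libraries of a species. Of 1389 human genes with a mean of at least 100 CPM, PRKDC, the catalytic subunit of the DNA-dependent protein kinase, was nearest to both MYH10 (0.57, where the median gene was at 2.28) and MYH9 (1.15, median 2.76). PRKDC had 309.7 and 61.8 CPM in HA IPs, 1963 and 892 CPM in V5 IPs, 75.0 CPM in the input and 197 CPM in HEK293. MYH10 came next for MYH9 (1.23), followed by DBN1, which encodes the actin-binding protein drebrin (1.60), MRPS5, a mitochondrial ribosomal protein (1.73), and IARS, an aminoacyl-tRNA synthetase (1.80). For MYH10 the next were DBN1 (1.07), TRIP11, a Golgi protein (1.12), HLTF, a helicase-like factor (1.21), and AIMP1, a part of the multisynthetase complex (1.22). TRIP11 differed in order, with 449.9 CPM in the first V5 IP and 1553 in the second. MYH9 and MYH10 were both selected for a difference between these libraries, so their likeness to each other is partly fixed by the choice. Both reached the mean of 100 CPM through the V5 IPs, as did DBN1, MRPS5, IARS, TRIP11, HLTF and AIMP1. The list of nearest human genes thus follows in part from that floor. Of 1383 mouse genes, Myh9 was the nearest to Myh10 (1.19, median 2.74). The nearest to Myh9 were ENSMUSG00000022255.16 (0.75, median 1.83) and ENSMUSG00000026879.14 (0.80), which no source used here names.

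Partners of the heavy chains were read from a list that held 42 human genes for other myosin II subunits, kinases and phosphatases of the light chain, actin and its partners, and other myosins, and 30 had enough counts. In HA against V5 IPs none of the 30 was called in either direction in edgeR, where 0.368% of genes were, and their median log2 difference was 0.23, against 0.37 over all genes. In first against second IPs none was called either, where 0.192% of genes were. The median log2 difference of the 30 there was 0.39, against 0.03 over all genes, and was not tested. In HA IPs against input 2 were called, both lower, where 0.625% of genes were called and 0.432% called lower. The same 2 were called lower in V5 IPs against input, where 0.753% of genes were called and 0.496% called lower. The medians were 0.70 and 0.18, against 0.38 and 0.00 over all genes. With list genes of 0 counts in 1 group set at 3 counts, the list medians were 0.26 and 0.35. The second left out 1 gene with 0 counts in both groups. The medians over all genes were not recomputed in this way, so they do not compare with these values.

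The 2 genes were ACTB and ACTG1, the cytoplasmic actins on whose filaments the motor works. ACTB stood at 673 and 435 CPM in HA IPs, 411 and 342 CPM in V5 IPs, 1828 CPM in the input and 2009 CPM in HEK293. It fell by 1.94 on the log2 scale in HA IPs against input (SE 0.52; edgeR adjusted p = 0.0361) and by 2.83 in V5 IPs against input (SE 0.54; edgeR adjusted p = 3.52e-04). ACTG1 had 1161 and 734 CPM in HA IPs, 1311 and 941 CPM in V5 IPs, 2988 CPM in the input and 1782 CPM in HEK293. It fell by 1.87 in HA IPs against input (SE 0.50; edgeR adjusted p = 0.0328) and by 1.96 in V5 IPs against input (SE 0.50; edgeR adjusted p = 0.0253). The actins thus lay below the input in every IP, while the heavy chains lay above it in the V5 IPs. The sequences of the actins were not compared here, so how well reads were split between these related genes is not known. The calls of both actins, in HA as in V5 IPs against input, were lost when a V5 IP, either one, was left out. With the trend of length or of GC content removed, 0 of the 2 stayed in HA IPs against input and 1 list gene was called lower in V5 IPs against input.

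No light chain gene was called. MYL6, an essential light chain, had 1289.6 and 1314 CPM in HA IPs, 946 and 905 CPM in V5 IPs, 1471 CPM in the input and 1098 CPM in HEK293. Its log2 differences were 0.88 for HA minus V5 (SE 0.44; edgeR adjusted p = 0.446) and −0.16 for first minus second IP (SE 0.40; edgeR adjusted p = 1.0). The regulatory light chain MYL12A differed by 0.30 between HA and V5 (SE 0.73; edgeR adjusted p = 0.908) and MYL12B by 0.75 (SE 0.72; edgeR adjusted p = 0.708). Against the input, MYL12A lay higher, by 2.88 in HA IPs (SE 1.11) and by 2.58 in V5 IPs (SE 1.14), on 4 input counts. In the same order MYL12B was at 0.26 and −0.49, MYL6 at −0.35 and −1.23, and MYL6B at −0.30 and −1.23. CFL1, the filament-severing protein cofilin, was at 1455 and 1605 CPM in HA IPs and at 1047 and 1540.4 CPM in V5 IPs (log2 0.65, SE 0.43; edgeR adjusted p = 0.570). MYH14, the third non-muscle heavy chain gene, had at most 8 counts in any library and was not tested.

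**Figure D5:**
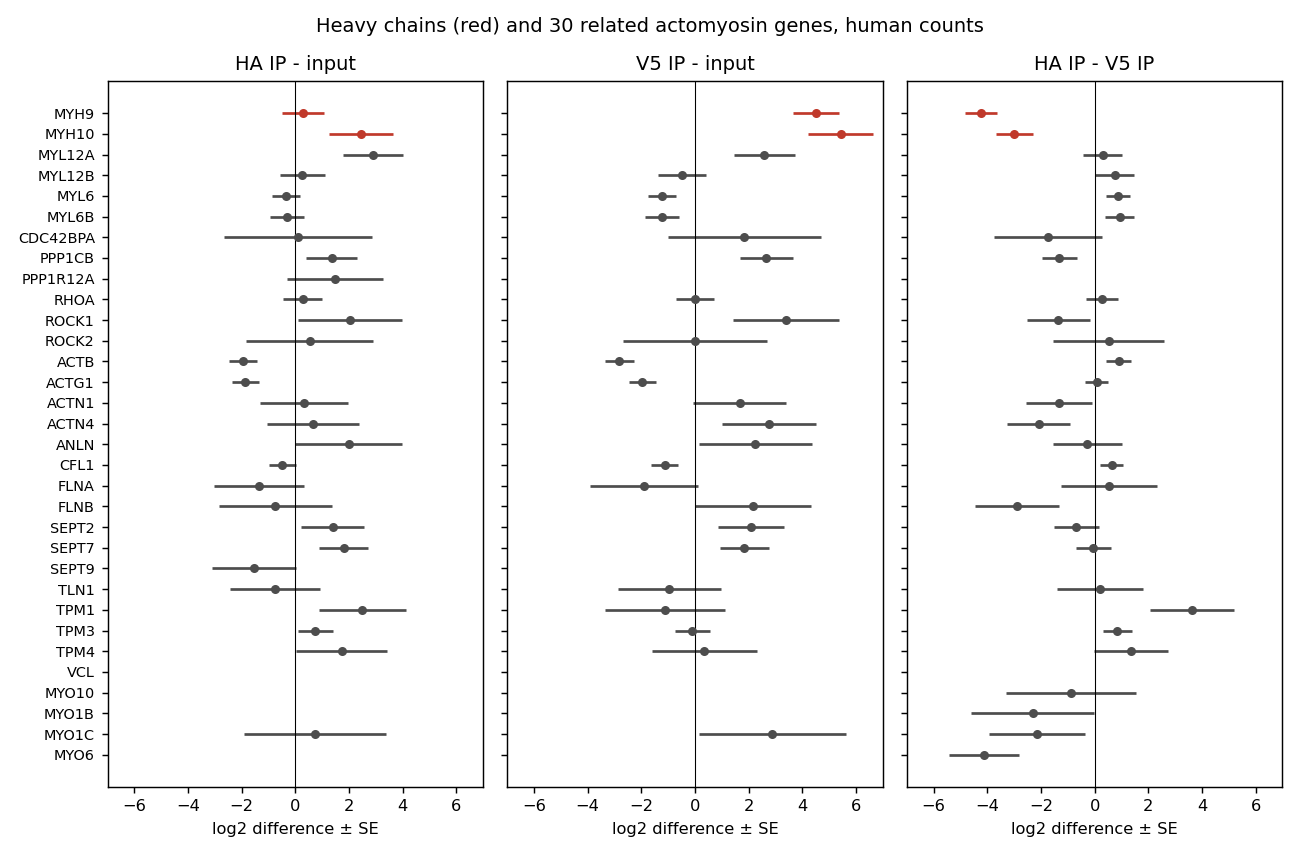
Fitted log2 differences (points) with SE (bars) of MYH9 and MYH10 (red) and 30 related human genes (grey) in HA IPs minus input, V5 IPs minus input and HA minus V5 IPs, and genes with 0 counts in a group have no point there. The heavy chains lie at 4.51 and 5.43 in V5 IPs minus input, where ACTB and ACTG1 lie at −2.83 and −1.96.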

How the data were processed

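The authors deposited whole-number counts of reads per gene for each library. Exon reads were summed per gene by featureCounts 1.5.2 with a joint annotation of the 2 species, as unstranded pairs, per the file headers. STAR 2.5.2, Trim Galore, bcl2fastq, SAMtools and the build hg38 are named, without roles, per the submitters' processing notes. All 58721 human identifiers and positions matched GENCODE 29. Genes within a species were fitted with edgeR 4.0.16 (R 4.3.3): own-species counts as library sizes, TMM factors, filterByExpr (minimum count 10, total 15), 6 libraries, two-sided quasi-likelihood tests, Benjamini-Hochberg adjustment over all genes tested and a threshold of 0.05. This kept 6244 human and 8221 mouse genes, all 4 heavy chains included. The spread rested on the IP pairs, and single libraries were assumed to vary like them. Alternatives included DESeq2 1.42.0, other scalings and filters, trends of length or GC removed, and each IP left out. The fits were also run on simulated counts with 200 changed genes and otherwise the same mean profile in all libraries. Real libraries differ more than that, so the run does not measure error rates on these data. Python 3.11.15, scipy 1.17.1, matplotlib 3.10.9 and Biopython 1.88 did the rest.

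The members, gene lists and rules were chosen with earlier results of these data known. The named genes were the 4 heavy chains, related genes called or among the 4 most abundant per kilobase in HA IPs, and the nearest 5 genes by profile (2 for mouse). MYL12A, MYL12B and MYH14 were added after their values were seen. IP order as a tested comparison, removal of the GC trend and subtraction at the limit of a count of 0 were added after seeing the data.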

Additional observations from a re-analysis of the deposited data

Results flagged for a closer look

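In 3 cases the first and the second IP moved opposite ways under the same contrast, and the difference was not tested in itself. MYH9 in HA IPs over input was 2.99 in the first IP and 0.162 in the second. Myh9 in HA over V5 IPs was 4.15 in the first and 0.536 in the second, and Myh10 was 7.44 in the first and at most 0.515 in the second.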

How the results depend on the processing

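The direction of MYH9 and MYH10 in HA against V5 and in V5 against input, and of all 4 genes in first against second IPs, was the same under each alternative run. These runs reuse the libraries in which the differences were first seen, so they are no independent support. Subtracting the other species' counts at the measured rate could change nothing, since the monocultures held no such counts. Leaving out one IP gave no residual degree of freedom for IP order, so it was not run there. With the length trend removed, V5 minus input moved to 4.71 for MYH10 and 3.79 for MYH9. HA minus V5 then stood at −3.62 for MYH9 and −2.38 for MYH10, and HA minus input at 2.23 for Myh9 and 4.01 for Myh10. Leaving out 1 IP moved HA minus V5 between −7.15 and −2.36 for MYH9, −4.53 and −2.30 for MYH10, −2.30 and 2.79 for Myh9 and −8.56 and 3.18 for Myh10. HA minus input ranged between −2.63 and 1.16 for MYH9, 0.90 and 3.11 for MYH10, −0.35 and 4.24 for Myh9 and −5.66 and 5.94 for Myh10, whose lowest values rest on 0 counts. V5 minus input ranged between 2.65 and 5.30 for MYH9, 4.94 and 5.81 for MYH10, 0.56 and 2.62 for Myh9 and 1.77 and 3.47 for Myh10. Myh9 passed in V5 against input with no filter (log2 1.97) and with only the groups compared (1.93), as did Myh10 with only the groups compared (2.88). Over all mouse genes 0.594% were called with no filter and 11.5% with only the groups compared. In HA against input with no filter both passed (3.34 and 4.92), where 1.18% of mouse genes were called. DESeq2 gave 3.38 for Myh9 and 5.12 for Myh10 in first against second IPs, neither called.

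The labels pair first IPs by lysate 1 and second IPs by number alone. First minus second differences correlated between HA and V5 at r = 0.204 over 2237 human and 0.348 over 2218 mouse genes. With IP order as a replicate block, HA minus input was 2.15 for Myh9 and 3.62 for Myh10 (edgeR adjusted p = 0.00493 and 0.0482), and calls rose to 117 in mouse V5 and 209 in mouse HA against input.

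Own-species totals moved the median log2 difference of all genes in V5 minus input to 0.53 from 0.00 (human) and to 0.38 from 0.12 (mouse), and in HA minus input to 0.57 from 0.38 (human) and to 0.46 from 0.00 (mouse). The higher and lower calls moved to 85 and 20 from 16 and 31 (human V5), 65 and 39 from 12 and 27 (human HA), 50 and 35 from 26 and 41 (mouse V5), 80 and 33 from 44 and 90 (mouse HA), and 19 and 7 from 12 and 0 (human IP order). Numbers of calls moved more. In human HA against V5 there were 23, against 38 with own-species totals and 18 to 117 without 1 IP. Human HA against input had 39, against 68 with DESeq2 size factors, 104 with totals, 82 in DESeq2, 260 with only those groups, 24 without the GC trend and 29 to 140 without 1 IP. Human V5 against input had 47, against 72 with DESeq2 size factors, 105 with totals, 30 with no filter, 7 with 50 counts in 2 libraries, 71 with only those groups, 18 without the GC trend and 76 to 167 without 1 IP. Mouse V5 against input had 67, against 110 in DESeq2, 896 with only those groups and 1 to 867 without 1 IP. Mouse HA against input had 134, against 30 with 50 counts in 2 libraries, 0 with only those groups in edgeR (347 at an unadjusted p under 0.05) and 20 to 1381 without 1 IP. Mouse HA against V5 had 22, against 13 with 50 counts in 2 libraries, 12 with only those groups and 2 to 794 without 1 IP. First against second had 12 human calls, against 26 with totals, and 15 mouse calls, against 8 in DESeq2. Related genes called without 1 IP ran from 0 to 1 in HA against V5, 0 to 2 in HA against input and 0 to 2 in V5 against input. The log2 ratio of Myh10 to Myh9 in the first V5 IP was −4.90 without the length correction.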
